A study of Mus musculus with 8 samples.

Results

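Purkinje cells are the output neurons of the cerebellar cortex, and 33 genes known for their development or signalling were followed here in the newborn mouse cerebellum. The 33 were a fixed list of names, among 24062 genes in the count tables, and all 33 were found there and passed the filter on low counts. RNA came from whole cerebella of individual pups at postnatal day 2, as polyA libraries, 4 mutant and 4 control. The mutant genotype was Math1-Cre; Sufu flox/-, in which Sufu, a negative regulator of Hedgehog signalling, is null on one chromosome and floxed on the other. Control littermates were Sufu flox/+, per the series text, and no label says if any of them had the Cre. The pups came from a cross in which one parent was homozygous for the floxed Sufu allele and for a Math1 mgfp allele, on a mixed C57BL/6 background, so that both groups share a floxed Sufu allele and one copy of that Math1 allele by descent.

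Purkinje cells arise from progenitors of the ventricular zone that express Ptf1a, whereas Math1 (Atoh1) marks the rhombic lip, the source of granule cell precursors. Math1-Cre is known for its activity in that rhombic lip lineage, and the null Sufu allele of the mutants is present in all their cells. Purkinje cells secrete Sonic hedgehog, which drives division of granule cell precursors around and after birth. Their calcium signalling runs from G proteins through phospholipase C to the IP3 receptor, and much of the machinery of that pathway is so abundant in these cells that it is used to mark them. At this age the cells are still migrating into a single layer and have short dendrites. In whole tissue, fewer Purkinje cells and less RNA per cell cannot be told apart. Several members, among them Foxp1, Auts2, Cacna1a, Dner, Itpr1 and Icmt, are also made by other cells of the brain.

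The libraries held 21479565 to 26638284 counts in genes. Levels are given in CPM, the counts scaled to a common library size with edgeR's TMM factors. Sufu, the targeted gene, was lower in all 4 mutants, at 31.7 to 39.8 CPM, than in any control, at 47.7 to 60.8 CPM (log2 fold change -0.59, SE 0.11, edgeR adjusted p = 0.381). Titles carry a letter of unstated meaning, P for mutants 1 and 2 and controls 1 and 2, and R for mutants 3 and 4 and controls 3 and 4. Libraries with the letter R had 12.2 to 13.7% of their entries outside annotated genes, against 14.2 to 17.7% with P. Mutants 2 and 4 held 5374 and 5729 counts over 4 Y-linked genes, and the other 6 libraries at most 5. Mutant 4 also stood apart in brainstem markers, with 14.8 CPM summed over 14 genes, against 103 to 166 CPM in the other mutants and 170.1 to 188 CPM in controls. Purkinje cell genes were present in all libraries: Calb1, Skor2, Foxp2, Rora, Car8 and Pcp2 had at least 9.02 CPM in each, and the other defining marker, Ppp1r17, had 0.640 to 1.75 CPM.

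No Purkinje cell gene passed the test of mutant against control. By edgeR's quasi-likelihood test, adjusted over the 15789 genes tested, 0 of 33 members passed, as did 0% of all genes, and by DESeq2 0 of 33 passed, against 0.333% of all genes. At an unadjusted edgeR p under 0.05, 4 members stood higher and 0 lower, or 12.1% and 0% of the list, beside 6.94% and 5.7% of all genes. These 4 were Pcp4l1, Rora, Plcb3 and Ppp1r17. In no member were the groups free of overlap, whereas 3.6% of all genes were higher and 2.96% lower in every mutant than in any control. Fitted means were higher in mutants for 24 of 33 members, or 72.7%, beside 52.3% of all genes. The median log2 fold change was 0.12 over the members and 0.012 over all genes tested.

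**Figure D1:**
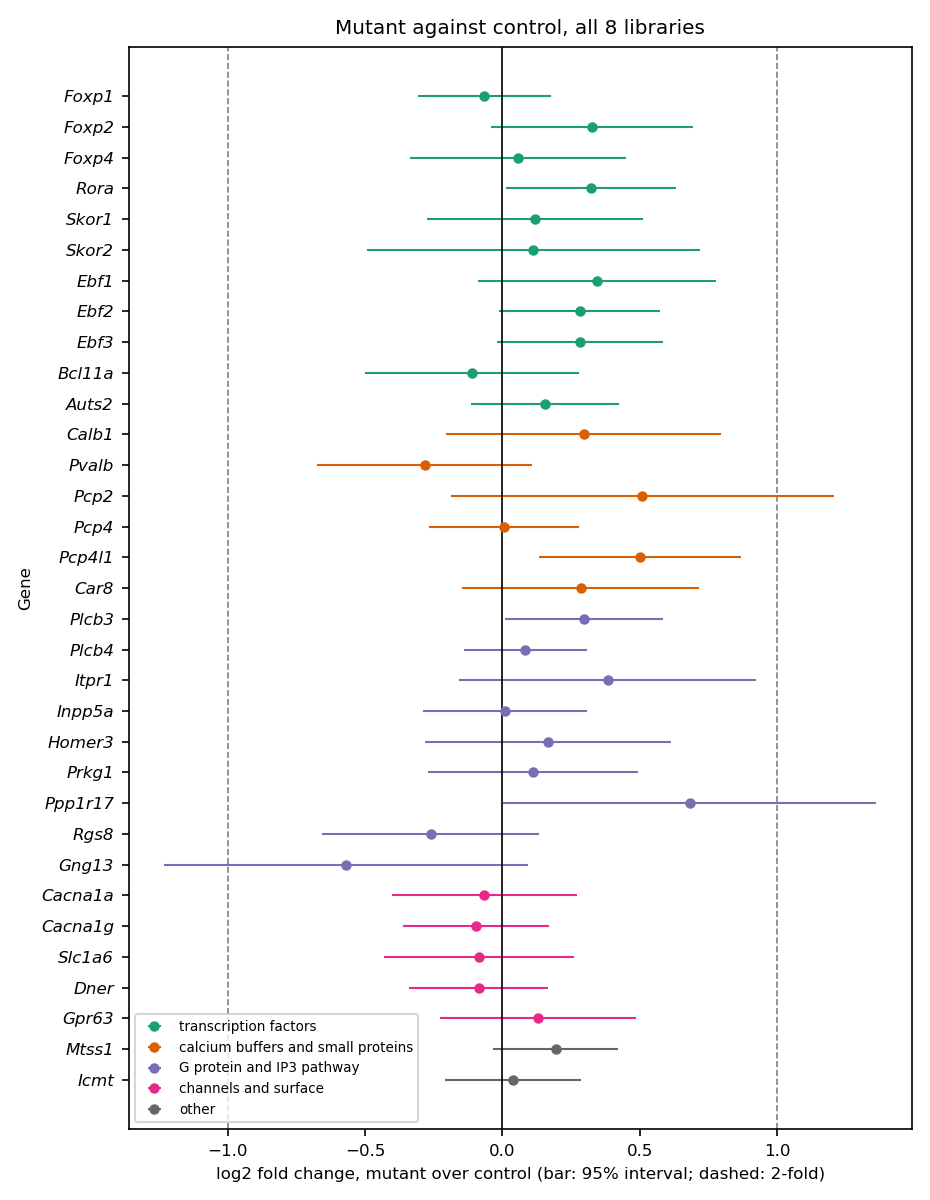
Log2 fold change of each Purkinje cell gene, mutant over control, on the x axis, with its 95% interval as a bar, over all 8 libraries; genes run down the y axis, coloured by role, and dashed lines mark 2-fold. The intervals of 30 of the 33 genes lie between the dashed lines, and those of Pcp2, Ppp1r17 and Gng13 cross one.

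The intervals bound the size of change in most members as an average over both title letters. Some estimates within a letter lay outside them. Bcl11a passed both of its bounds, -0.5 and 0.280, with log2 fold changes of -0.573 within R and 0.332 within P. Cacna1a, at -0.466 within R and 0.326 within P, also passed both, -0.403 and 0.272. So did Cacna1g, at -0.399 within R and 0.183 within P, for bounds of -0.361 and 0.168. Within R, Rgs8 had -0.703 against a lower bound of -0.658, and Dner -0.357 against -0.339. Ebf3 within P had 0.588 against an upper bound of 0.586. The 95% interval of the fold change lay within 2-fold in both directions for 30 of 33 members, or 90.9%, beside 89.9% of all genes, and within 1.5-fold for 17 of 33, or 51.5%, beside 64% of all genes. The exceptions to the wider bound were Pcp2, with an interval of 0.878-fold to 2.31-fold, Ppp1r17, with an upper bound of 2.57-fold, and Gng13, with a lower bound of 0.426-fold. The last 2 were the members with the fewest reads. Members varied more between libraries of a group than genes at large. The coefficient of variation among the 4 controls had a median of 19.1% over the members and 11.2% over all genes, and among the 4 mutants 18.2% and 14.5%. This spread includes the difference between title letters, described below.

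Transcription factors that build the Purkinje cell were considered first. Of the 11, 9 had higher and 2 lower fitted means in mutants, 0 passed, and the median log2 fold change was 0.15. Rora encodes the nuclear receptor whose loss in staggerer mice stops Purkinje cells from maturing. It stood at 112, 97.9, 69.6 and 102 CPM in mutants 1 to 4 and at 67.9, 83.1, 72.3 and 82.0 CPM in controls 1 to 4. Mutants 1, 2 and 4 were above every control and mutant 3 fell among them. The log2 fold change was 0.32 (SE 0.14), with an edgeR adjusted p of 0.392. Foxp2, a forkhead factor of Purkinje cells from the time they leave the cell cycle, had 70.1, 79.7, 50.2 and 72.2 CPM in mutants and 40.9, 52.0, 59.3 and 64.9 CPM in controls. The same 3 mutants exceeded all controls, and mutant 3 lay below 3 of them, for a log2 fold change of 0.33 (SE 0.17, edgeR adjusted p = 0.417).

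Skor2, a corepressor needed for Purkinje cell differentiation and nearly restricted to these cells in the cerebellum, had the widest spread among controls of the transcriptional members. Mutants had 14.2, 17.4, 19.3 and 24.5 CPM and controls 11.5, 11.1, 22.5 and 24.8 CPM. The controls split into a low and a high pair, and all mutants lay between the extremes of the controls, for a log2 fold change of 0.11 (SE 0.27, edgeR adjusted p = 0.873). Its relative Skor1 spanned 23.4 to 33.4 CPM in mutants and 20.4 to 33.1 CPM in controls. The helix-loop-helix factors Ebf1, Ebf2 and Ebf3, which act in migration and in the later subdivision of Purkinje cells into stripes, had log2 fold changes of 0.34 (SE 0.20), 0.28 (SE 0.13) and 0.28 (SE 0.14). Ebf2, whose product marks a subset of Purkinje cells, had 46.5, 43.95, 30.4 and 38.1 CPM in mutants, against 29.4, 33.99, 33.04 and 34.4 CPM in controls. Here too mutants 1, 2 and 4 lay above all controls and mutant 3 did not. The remaining factors differed by less than the spread between pups, with log2 fold changes of -0.07 for Foxp1, 0.06 for Foxp4, -0.11 for Bcl11a and 0.15 for Auts2.

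Among calcium buffers and small Purkinje cell proteins, Pcp4l1 had the smallest p of the whole list. Pcp4l1 encodes a small relative of Pcp4, a protein that binds calmodulin. Its level was 57.1, 76.6, 72.4 and 83.0 CPM in mutants and 38.0, 46.3, 55.5 and 64.7 CPM in controls. Mutants 2, 3 and 4 were above all controls, and mutant 1 lay between control 3 and control 4. The log2 fold change was 0.50 (SE 0.17), the edgeR unadjusted p was 0.0124 and the adjusted p was 0.381. Pcp4 itself had 211, 156, 225 and 228 CPM in mutants and 217, 192, 202 and 205 CPM in controls, with a log2 fold change of 0.006 (SE 0.12) whose 95% interval ran from 0.831-fold to 1.21-fold. Mutant 2 held the lowest Pcp4 value of all 8 libraries and mutants 3 and 4 the highest.

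Calb1, the calcium buffer calbindin, is the most used label of Purkinje cells. It stood at 177, 120.3, 172 and 250.2 CPM in mutants and at 110.5, 121, 158 and 196 CPM in controls, and the groups overlapped over most of their range (log2 fold change 0.30, SE 0.23). Car8, which binds the IP3 receptor and lowers its affinity for IP3, had 225, 199.6, 219 and 322 CPM in mutants and 144, 178, 207 and 263 CPM in controls (log2 fold change 0.28, SE 0.20). Pcp2, a modulator of G protein signalling whose promoter is widely used to drive transgenes in Purkinje cells, had 16.5, 15.6, 27.2 and 31.3 CPM in mutants and 12.5, 9.02, 17.1 and 25.2 CPM in controls. In all of these genes mutant 4 was the highest of the 8 libraries. Pvalb, the buffer parvalbumin, appears in Purkinje cells and interneurons mainly after this age and was low, at 6.26, 7.30, 7.82 and 4.65 CPM in mutants and 8.17, 8.001, 8.77 and 6.67 CPM in controls. Its log2 fold change was -0.28 (SE 0.18), and mutants 1 and 4 lay below every control.

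Rora protein binds DNA that holds the half-site AGGTCA, and Pcp2 and Pcp4 are known among its targets, so the promoter sequences of members were set beside their levels. RefSeq promoter windows on the GRCm38.p6 build, 250 bases before to 50 after the start site, were at hand for 22 of the 33 members. AGGTCA on either strand occurred in the most upstream window of 5 of these 22 genes, or 22.7%, against 16% of 27025 genes in all. The 5 were Pcp2, Pcp4, Plcb3, Homer3 and Dner. The sequences of 3 of them, and that of Pcp4l1, which has the smallest p and no match, are shown 5′ to 3′ on the strand of the gene, with AGGTCA or its reverse complement TGACCT in capitals. They come from chr8:3625498-3625797 (minus strand), chr16:96467356-96467655 (plus strand), chr19:6969765-6970064 (minus strand) and chr1:171196219-171196518 (minus strand).
Pcp2: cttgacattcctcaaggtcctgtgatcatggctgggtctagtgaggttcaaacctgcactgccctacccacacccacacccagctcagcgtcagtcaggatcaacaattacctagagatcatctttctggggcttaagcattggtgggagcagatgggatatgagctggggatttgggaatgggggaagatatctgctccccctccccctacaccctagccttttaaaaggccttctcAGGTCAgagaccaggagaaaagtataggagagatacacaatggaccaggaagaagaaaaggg
Pcp4: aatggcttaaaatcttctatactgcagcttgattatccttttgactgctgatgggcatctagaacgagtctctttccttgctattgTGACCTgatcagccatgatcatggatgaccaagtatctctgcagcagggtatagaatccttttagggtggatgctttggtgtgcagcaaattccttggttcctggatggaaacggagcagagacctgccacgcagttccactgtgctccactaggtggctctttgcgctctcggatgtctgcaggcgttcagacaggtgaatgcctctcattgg
Plcb3: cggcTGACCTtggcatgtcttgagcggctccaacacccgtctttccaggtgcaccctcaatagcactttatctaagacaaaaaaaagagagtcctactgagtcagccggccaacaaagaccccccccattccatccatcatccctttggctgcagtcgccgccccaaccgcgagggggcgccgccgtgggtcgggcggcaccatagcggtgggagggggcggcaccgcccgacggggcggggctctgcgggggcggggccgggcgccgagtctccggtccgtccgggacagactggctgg
Pcp4l1: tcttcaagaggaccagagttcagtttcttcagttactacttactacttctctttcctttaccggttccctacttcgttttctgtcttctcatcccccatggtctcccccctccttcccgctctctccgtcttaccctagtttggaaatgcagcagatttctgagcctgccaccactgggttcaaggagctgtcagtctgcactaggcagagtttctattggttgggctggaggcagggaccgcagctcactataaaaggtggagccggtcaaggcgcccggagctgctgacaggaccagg

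The match begins 12 bases before the start site in Pcp2, 164 before it in Pcp4 and 246 before it in Plcb3. The 5 genes with a match in the most upstream window had these log2 fold changes: 0.51 for Pcp2, 0.006 for Pcp4, 0.30 for Plcb3, 0.17 for Homer3 and -0.09 for Dner. Rgs8 and Gpr63 held a match only in another window, and stood at -0.26 and 0.13. The whole list ran from -0.57 to 0.68, and Pcp4l1, without a match, stood at 0.50. A match of these letters is a description and not a binding site.

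**Figure D2:**
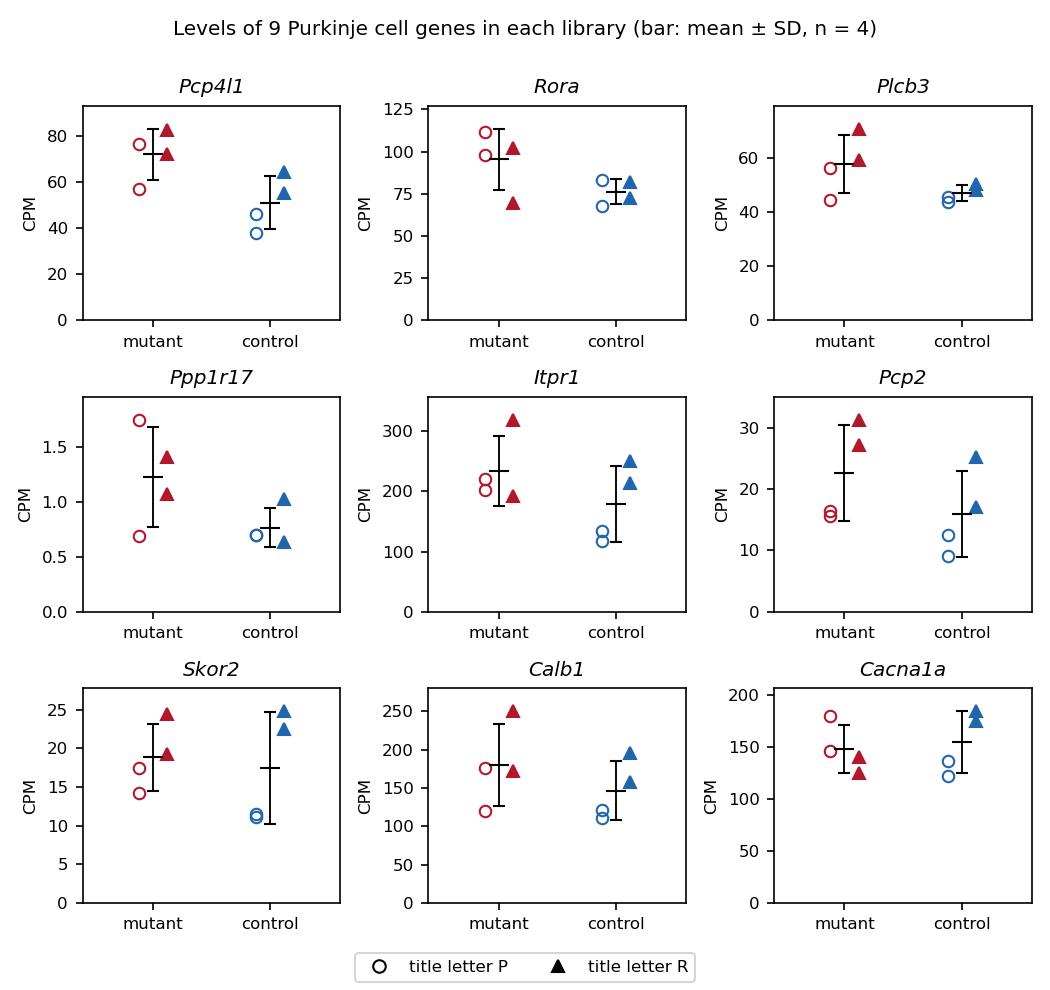
CPM of 9 Purkinje cell genes in each library, mutants left and controls right in each panel, with open circles for title letter P, filled triangles for title letter R, and the mean ± SD (n = 4) as a bar. In Itpr1, Skor2 and Pcp2 the P controls sit below the R controls, and in Cacna1a the mutants lie above the controls among circles and below them among triangles.

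The pathway from G proteins through phospholipase C to the IP3 receptor supplied 9 members, of which 7 had higher and 2 lower fitted means in mutants and 0 passed, with a median log2 fold change of 0.11. Plcb3 and Plcb4 encode the phospholipase C isoforms of alternating Purkinje cell stripes in the adult, Plcb3 in the stripes that hold zebrin II and Plcb4 in those that do not. Plcb3 was at 44.6, 56.5, 59.2 and 70.7 CPM in mutants and at 43.6, 45.5, 50.5 and 48.3 CPM in controls. Mutants 2, 3 and 4 were above all controls, mutant 1 above control 1 only, and the log2 fold change was 0.30 (SE 0.13, edgeR adjusted p = 0.393). Plcb3 lies on chromosome 19, which also carries Sufu and Prkg1, another of the 9, with a log2 fold change of 0.11 (SE 0.17). Plcb4 was at 103, 95.2, 81.6 and 92.6 CPM in mutants and 84.1, 79.2, 89.3 and 98.8 CPM in controls, with the groups interleaved and a log2 fold change of 0.08 (SE 0.10).

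Itpr1, the IP3 receptor of Purkinje cells, was deeply covered. It had 202, 220.3, 192 and 319 CPM in mutants and 118, 134, 214 and 251 CPM in controls. The lowest 2 libraries were controls 1 and 2, the highest was mutant 4, and the log2 fold change was 0.38 (SE 0.24, edgeR adjusted p = 0.492). Ppp1r17, a phosphatase inhibitor phosphorylated by the kinase that Prkg1 encodes, had 1.75, 0.687, 1.41 and 1.08 CPM in mutants and 0.697, 0.703, 0.640 and 1.03 CPM in controls. Mutants 1, 3 and 4 were above all controls and mutant 2 was below 3 of them, and the log2 fold change of 0.68 (SE 0.31, edgeR adjusted p = 0.395) rests on few reads. Prkg1 itself stood at 0.11 (SE 0.17).

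The other members of the pathway went both ways without passing. Homer3, a scaffold of the synapse that binds the IP3 receptor, ranged from 22.4 to 43.8 CPM in mutants and from 25.3 to 35.1 CPM in controls, and mutants held both its lowest and its highest values. Inpp5a, the phosphatase that ends the IP3 signal, had a log2 fold change of 0.01 (SE 0.13). Rgs8, which speeds the shutting off of G proteins, had 64.8, 46.9, 42.3 and 32.4 CPM in mutants, against 52.6, 51.6, 63.5 and 55.8 CPM in controls. Mutant 1 was the highest of all 8 libraries and the other 3 mutants the lowest, for a log2 fold change of -0.26 (SE 0.18). Gng13, a G protein gamma subunit, was at 0.781 to 1.40 CPM in mutants and 1.08 to 2.32 CPM in controls, a log2 fold change of -0.57 (SE 0.30).

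Partners of the same pathway outside the list showed no call either. Of 18 genes for receptors, G proteins, scaffolds and calcium stores, 4 had higher and 14 lower fitted means, 0 passed, 0 reached an unadjusted edgeR p under 0.05, and the median log2 fold change was -0.03. The median was -0.23 among libraries with the letter R and 0.14 among those with P. Homer2, a relative of Homer3, was at 122 ± 11.5 CPM in mutants and 106 ± 9.41 CPM in controls (SD, n = 4 each).

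Ion channels, a transporter and surface proteins were the one role in which most members stood lower in mutants, 4 of 5. Again 0 passed the test, and the median log2 fold change was -0.09, which was -0.36 within R and 0.18 within P. The 4 lower members, Cacna1a, Cacna1g, Slc1a6 and Dner, all had log2 fold changes above 0 within P. Cacna1a encodes the P/Q type calcium channel and Cacna1g a T type channel. Cacna1a had 146, 180.1, 140.2 and 125 CPM in mutants and 137, 122, 185 and 175 CPM in controls, with full overlap. Cacna1g ranged from 129 to 165 CPM in mutants and from 133 to 179 CPM in controls. Slc1a6, the glutamate transporter EAAT4 of Purkinje cells, had 36.2, 27.8, 33.9 and 34.6 CPM in mutants and 34.9, 24.9, 39.3 and 41.6 CPM in controls (log2 fold change -0.09, SE 0.16). Dner, a Notch ligand on Purkinje cells, stood at -0.09 (SE 0.11), and Gpr63, an orphan receptor, at 0.13 (SE 0.16). Of the 2 members left, Mtss1, an actin regulator of dendrites, stood at 0.19 (SE 0.10) and Icmt, a methyltransferase of prenylated proteins, at 0.04 (SE 0.11).

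In 3 further lists of Purkinje cell genes 0 members passed the test. Of 14 genes of the lineage and of cell placement, 12 had higher fitted means, with a median log2 fold change of 0.16, which was 0.13 within R and 0.14 within P. Vldlr, a receptor through which Reelin guides Purkinje cells to their layer, was at 135, 124, 122 and 163 CPM in mutants and at 102, 108, 103 and 114 CPM in controls. All mutants were above all controls (log2 fold change 0.35, SE 0.11), and the edgeR adjusted p was 0.381. Ntrk3, the receptor of neurotrophin-3, was at 56.5 ± 13.95 CPM in mutants and 66.5 ± 4.36 CPM in controls (SD, n = 4 each), a log2 fold change of -0.24 (SE 0.16). Shh was at 4.41 ± 0.660 CPM in mutants and 4.07 ± 0.781 CPM in controls (SD, n = 4 each). Of 11 genes of dendrites, synapses and firing, 4 had higher and 7 lower fitted means, with a median log2 fold change of -0.08, which was -0.31 within R and 0.17 within P. Grid2ip, a scaffold of the delta glutamate receptor at parallel fibre synapses, had a log2 fold change of 0.47 (SE 0.25), and Scn4b, a sodium channel subunit, one of -0.43 (SE 0.22).

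Of 12 genes that subdivide the Purkinje cell layer, 10 had lower and 2 higher fitted means in mutants, with a median log2 fold change of -0.13, which was -0.52 within R and 0.11 within P. Aldoc, the enzyme known as zebrin II, had 344, 285, 334 and 148 CPM in mutants and 494, 403, 462 and 415 CPM in controls. Every mutant was below every control (log2 fold change -0.67, SE 0.22, edgeR adjusted p = 0.381). Nrgn, which binds calmodulin, had 9.36, 12.7, 10.4 and 5.35 CPM in mutants and 15.1, 9.17, 16.5 and 28.6 CPM in controls, with a log2 fold change of -0.87 (SE 0.33). At this age Aldoc RNA is also made by astroglia, so its level in whole tissue is not one of Purkinje cells alone.

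**Figure D3:**
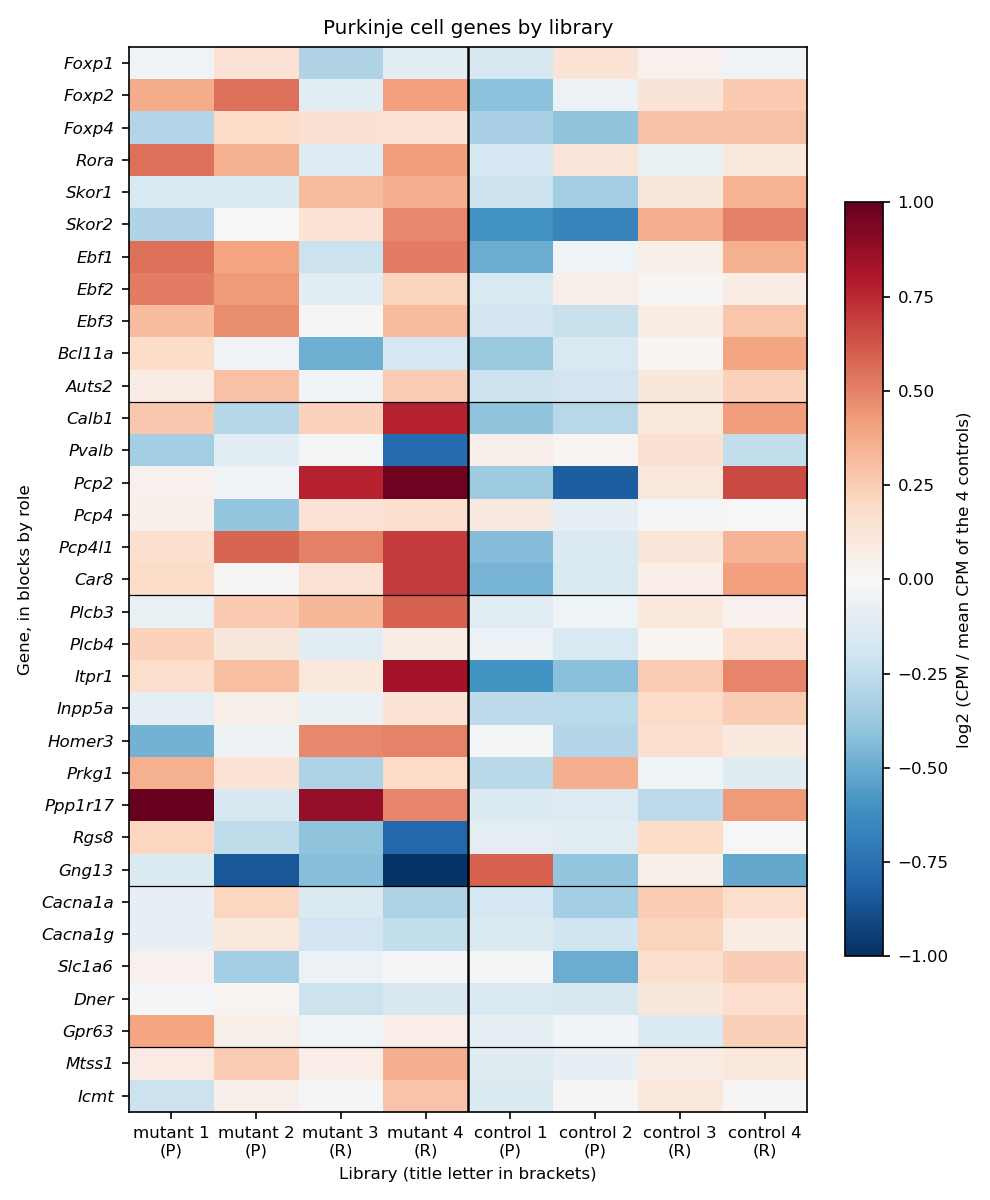
Log2 ratio of each library's CPM to the mean of the 4 controls for the 33 genes, with mutants in the left 4 columns and controls in the right 4 and the title letter in brackets; rows are in blocks by role and colours stop at 2-fold. Controls 1 and 2, both with letter P, are blue in most rows, and controls 3 and 4, with letter R, are red.

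Controls differed among themselves along the title letter. In 24 of 33 members, or 72.7%, both R controls were above both P controls, and in 0 were both below, beside 30.4% and 29.4% of all genes. Itpr1 averaged 232 CPM in R controls and 126 CPM in P controls, a ratio of 1.84. The ratio of R to P controls was 2.10 for Skor2, 1.97 for Pcp2, 1.58 for Foxp4, 1.53 for Calb1 and 1.46 for Car8. Controls 1 and 2 held the lowest of the 8 values in 11 and 9 of the 33 members, beside 12.1% and 10.2% of all genes. Among mutants this order was not seen across the list: both R mutants were above both P mutants in 6 members, or 18.2%, and below in 8, or 24.2%, beside 30.3% and 27.3% of all genes. The genes just named for their ratio kept the direction in their means. Their ratio of R to P mutants was 1.21 for Itpr1, 1.38 for Skor2, 1.83 for Pcp2, 1.13 for Foxp4, 1.42 for Calb1 and 1.27 for Car8. In Itpr1, Foxp4, Calb1 and Car8, however, the R mutants overlapped with the P mutants. Mutant 3 lay below both P mutants in Itpr1, and below mutant 1 in Calb1 and Car8. In these last 3 genes mutant 4 was the highest library. With genotype in the edgeR fit, 0 members passed for the letter, beside 0.0127% of all genes higher and 0.00633% lower in R. At an unadjusted p under 0.05, 11 members, or 33.3%, were higher in R and 0 lower, beside 13.3% and 12.7% of all genes. Pcp2 had the smallest p of them (log2 R over P 0.92, SE 0.15, edgeR adjusted p = 0.0568). By DESeq2 8 of 32 members with an adjusted p passed as higher in R, or 25%, beside 5.89% of all genes: Pcp2, Skor1, Skor2, Calb1, Itpr1, Car8, Homer3 and Foxp4. The letter fits and their choice came after the data were seen.

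The difference between genotypes was therefore computed within each letter. Within R, with 2 mutants against 2 controls, mutants had the higher mean CPM in 15 of 33 members, or 45.5%, beside 54.3% of all genes. Both R mutants exceeded both R controls in 6 members, or 18.2%, and lay below both in 9, or 27.3%, beside 35.4% and 29.2% of all genes. Within P, mutants had the higher mean CPM in 28 of 33 members, or 84.8%, beside 50.2% of all genes. Both P mutants exceeded both P controls in 21 members, or 63.6%, and lay below both in 1, Pvalb, or 3.03%, beside 23.1% and 23.2% of all genes. The median log2 fold change of the members was -0.05 within R and 0.29 within P. In neither letter did a member pass over all genes by edgeR, and in R 0% of all genes passed as higher and 0.00635% as lower, against 0.00626% and 0.025% in P.

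**Figure D4:**
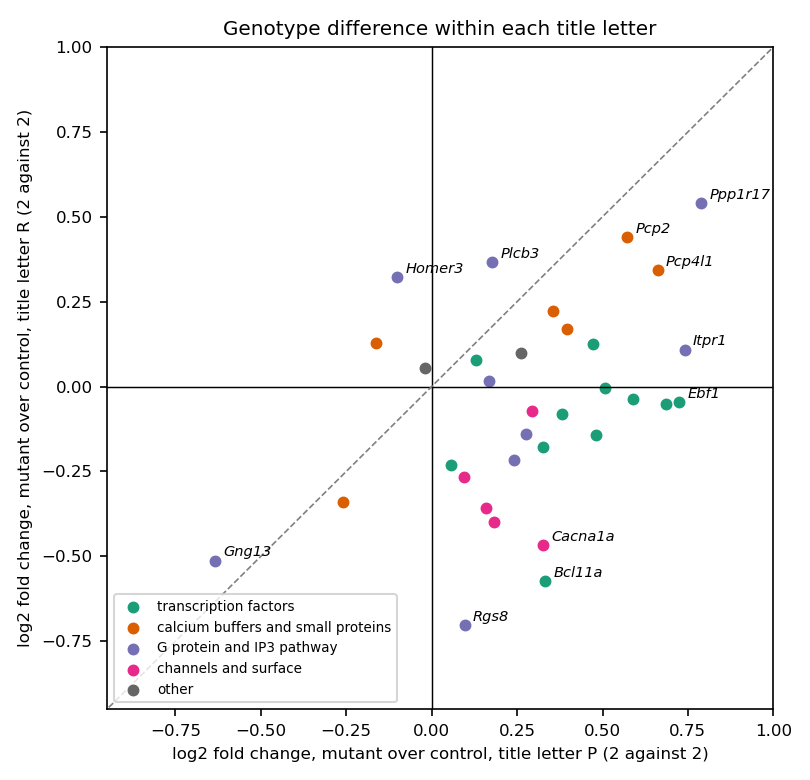
Log2 fold change of each Purkinje cell gene, mutant over control, among libraries with title letter P on the x axis and with R on the y axis, 2 against 2 libraries each, coloured by role; the dashed line marks equal values. Of the 33 points, 28 lie right of 0 on the x axis and 14 above 0 on the y axis, and most points lie below the dashed line.

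Itpr1 had a larger genotype difference within P than within R. R mutants had 192 and 319 CPM and R controls 214 and 251 CPM, a log2 fold change of 0.11, while P mutants had 202 and 220.3 CPM and P controls 118 and 134 CPM, a log2 fold change of 0.74. Ebf1 stood at -0.05 within R and 0.73 within P, and Foxp2 at -0.05 within R and 0.68 within P. Cacna1a turned in sign: R mutants had 140.2 and 125 CPM against 185 and 175 CPM in R controls, and P mutants 146 and 180.1 CPM against 137 and 122 CPM in P controls. For Cacna1a the edgeR interaction of genotype and letter, the difference in R less that in P, was -0.77 on the log2 scale (adjusted p = 0.0477 over all genes), the 1 call among the members, or 3.03%, beside 3.2% of all genes. At an unadjusted p under 0.05, the R difference was the lower in 13 members, or 39.4%, and the higher in 0, beside 10.2% and 12.2% of all genes. Foxp2 was among these 13 members, and Itpr1 and Ebf1 were not. The interaction was below 0 in 28 members, or 84.8%, beside 48.1% of all genes. It was -0.71 for Foxp2, -0.60 for Itpr1 and -0.74 for Ebf1, but -0.11 for Pcp2, -0.11 for Calb1 and -0.03 for Skor1. DESeq2 called 7 of 31 members for it, or 22.6%, beside 8.09% of all genes: Cacna1a, Bcl11a, Dner, Cacna1g, Ebf3, Rgs8 and Foxp2. The Cacna1a call ended when any 1 library other than mutant 3 was left out, with an adjusted p of 0.0684 to 0.207, while the interaction itself stayed between -0.92 and -0.63.

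In 13 of 33 members the fitted log2 fold change had the same sign in both letters, above 0 in 11 and below 0 in 2. The share of all genes with the same sign in both letters was not computed. Pcp4l1 stood at 0.34 within R and 0.66 within P, with both mutants above both controls in each. Pcp2 did likewise, at 0.44 within R and 0.57 within P. Plcb3 stood at 0.37 within R and 0.18 within P, Rora at 0.13 within R and 0.47 within P and Ppp1r17 at 0.54 within R and 0.79 within P, with an overlap in 1 letter each. Calb1 stood at 0.22 within R and 0.35 within P, Car8 at 0.17 within R and 0.40 within P, and Itpr1, Skor1, Prkg1 and Mtss1 were also above 0 in both. Gng13 and Pvalb were below 0 in both.

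**Figure D5:**
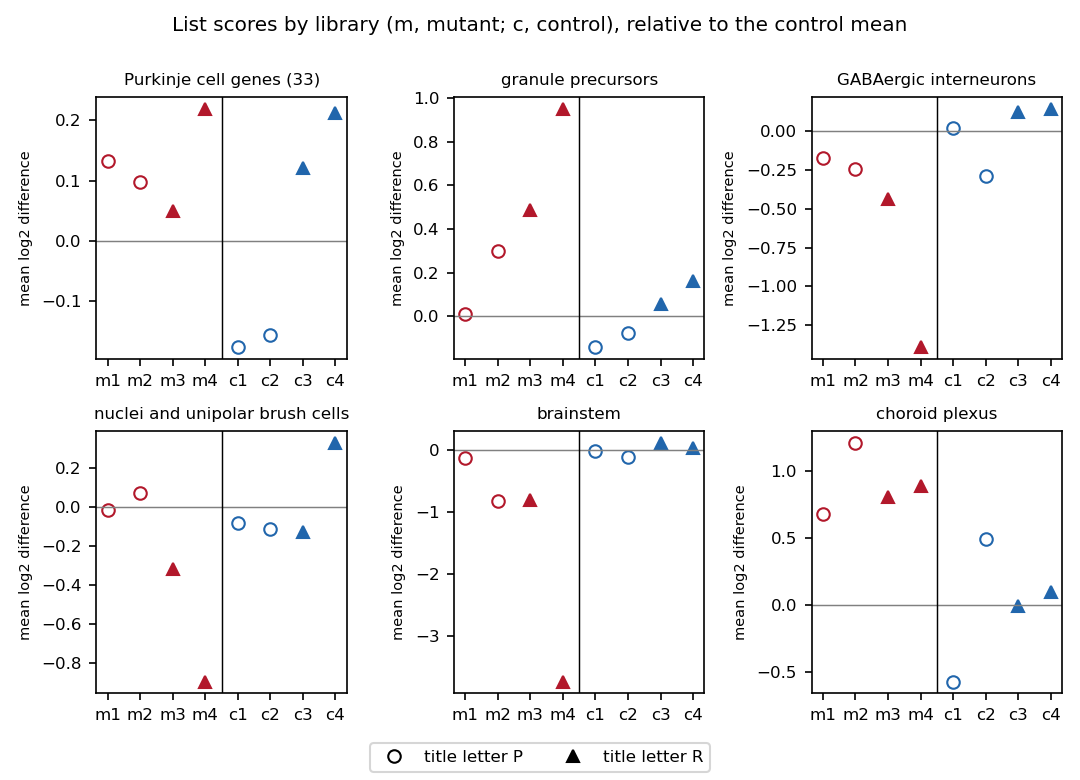
Mean log2 difference from the control mean over the genes of a list, for each library (m, mutant; c, control), with open circles for title letter P and filled triangles for R. Mutant 4 is lowest for brainstem, nuclei and interneuron markers and highest for granule precursors, while for Purkinje cell genes controls 1 and 2 are the low libraries.

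Markers of other cells also differed between the libraries. The mean log2 score of the 33 members was 0.13, 0.10, 0.05 and 0.22 in mutants 1 to 4 and -0.18, -0.16, 0.12 and 0.21 in controls 1 to 4. Brainstem markers, 14 of 14 with lower fitted means in mutants, scored -0.13, -0.82, -0.81 and -3.74 in mutants and -0.11 to 0.11 in controls. GABAergic interneuron markers, 10 of 10 lower, summed to 364 to 601 CPM in mutants and 567 to 742 CPM in controls, and 7 markers of cerebellar nuclei and unipolar brush cells, 5 of them lower, summed to 176 to 457 CPM in mutants and 396 to 454 CPM in controls. Granule precursor markers, 11 of 11 higher, summed to 1419 to 2666 CPM in mutants and 1354 to 1607 CPM in controls, and Atoh1 was at 31.8 ± 13.5 CPM in mutants and 19.2 ± 2.36 CPM in controls (SD, n = 4 each). Choroid plexus markers, 10 of 10 higher, summed to 3906 to 6564 CPM in mutants and 1570 to 3609 CPM in controls. Of the controls low in Purkinje cell genes, control 1 was the lowest control here, at 1570 CPM, and control 2 the highest, at 3609 CPM. The part of each of these in the Purkinje cell values was not tested. With the Hox genes of the brainstem list as a covariate, the median log2 fold change of the members was 0.07, and 1 member had an unadjusted edgeR p under 0.05. Mutant 4 was the highest library in 11 of 33 members, or 33.3%, beside 25% of all genes, and without it the median was 0.08, with 1 member at an unadjusted p under 0.05. With mutants 2 and 4, those with Y-linked counts, both left out, the median was 0.07.

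Exon use gave a readout independent of the overall level. The exon bin tables held 33 groups that belong to a single member each, and 30 had at least 2 bins past the filter. Ppp1r17, Gng13 and Gpr63 did not. By Simes' method in edgeR, 0 of the 30 members passed for a difference in the use of bins, at the adjusted threshold or at an unadjusted p under 0.05, beside 0.00749% and 0.24% of the 13351 bin groups tested. The test that pools all bins of a gene called 0 members and 0.0225% of groups. The share of 0.24% is far below what chance alone gives at a threshold of 0.05, so this test was conservative. Its lack of calls therefore cannot bound differences in exon use. Itpr1, with 62 bins tested, and Cacna1a, with 51, both known for regulated splicing, had no bin past the threshold. The members with the smallest Simes p were Bcl11a, Homer3 and Pvalb, at 0.852, 0.914 and 0.933 before adjustment in edgeR. Bin 7 of Bcl11a, in the order of the bin names, held 26.2 ± 4.19% of the gene's bin counts in mutants and 21.3 ± 3.42% in controls (SD, n = 4 each), with an edgeR adjusted p of 1. Bin 11 of Homer3 held 1.15 to 2.05% in mutants and 1.73 to 2.59% in controls. Bin 1 of Pvalb held 23.3 ± 2.67% in mutants and 25.4 ± 2.14% in controls (SD, n = 4 each). The groups overlapped in all 3 bins.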

How the data were processed

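The authors deposited raw read counts per gene and per exon bin for each library, as whole numbers with no normalization. Per the submitters' processing notes, TopHat, HTSeq and DESeq2 were used, with no version named, on mm9. No source used here gives the annotation or the strand setting, so reads of genes that overlap, antisense ones included, cannot be assigned with certainty. The 5 summary lines of each gene table, 24.8 to 34.3% of entries, and the 4 of each bin table, 15.2 to 22.6%, were left out. Gene counts came to 21479565 to 26638284 per library, and bin counts, in which a read can count more than once, to 37946499 to 48042681.

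The gene test was that of edgeR 4.0.16, run in R 4.3.3 (filterByExpr, TMM factors 0.986 to 1.01, robust quasi-likelihood F test, two-sided, genotype as the only term) over all 15789 genes, with Benjamini-Hochberg adjustment and a threshold of 0.05. Each standard error is the size of the log2 fold change over the root of F, and 95% intervals come from these and the fitted degrees of freedom. Bins were tested with diffSpliceDGE over 152302 bins. List scores are means of log2 CPM (prior count 2) less the control mean. DESeq2 1.42.0 was an alternative. Each library is 1 pup, per the labels, and no pair within a group was a copy (chi-square per degree of freedom 7.42 to 81). The steps were tested on simulated data.

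The members and lists were chosen with earlier results of these data known. Library values were given in full for members at an unadjusted p under 0.05 or with no overlap and for a set of standard markers, and for some others chosen after their values were seen (Ebf2, Rgs8 and Cacna1a); other Purkinje lists gave the 2 genes with the smallest p, of which 1 is not reported here, and Shh was added after its values were seen. The alternatives were RLE scaling, no filter, DESeq2, the title letter as a block, each letter alone, the Hox genes as a covariate and each library left out; those on the letter's own effect, on its interaction and on Y-linked counts were added after the data were seen. Promoter windows are from RefSeq on GRCm38.p6 and were not joined to mm9 coordinates.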

Additional observations from a re-analysis of the deposited data

Results flagged for a closer look

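A test of 66 groups, 33 members in mutants and in controls, found 2 in which 1 library was far from the other 3, and chance gives about 5% of groups. Foxp4 in mutant 1 was at 76.2 CPM, against 103 to 106 CPM in the other mutants, a value near those of controls 1 and 2. Ppp1r17 in control 4 was at 1.03 CPM, against 0.640 to 0.703 CPM in the other controls, a difference of few reads. Cacna1a differed between title letters in its genotype difference, with an edgeR interaction of -0.77 on the log2 scale (adjusted p = 0.0477). Its log2 fold changes were -0.47 within R and 0.33 within P. The interaction was called in 1 of 33 members, or 3.03%, beside 3.2% of all genes. The call depended on which libraries were kept, as described above.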

How the results depend on the processing

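No member passed over all genes under any alternative run. The count over all genes was 51 with DESeq2, 1 within R, 5 within P, 0 to 1 when 1 library was left out (1 without mutant 1), and 0 otherwise. The count of members higher at an unadjusted p under 0.05, 4 in all, was 1 with the Hox covariate, 16 within P and 1 without both mutants with Y-linked counts, and 1 to 9 when 1 library was left out, the highest without control 4 and the lowest without mutant 4, control 1 or control 2. The count lower was 6 within R and 0 to 2 when 1 library was left out. For these alternatives the share of all genes at an unadjusted p under 0.05 was not computed. The counts of members here, and the 5 under the replicate block below, therefore cannot be set against it. The median log2 fold change of the members was -0.047 within R and 0.29 within P. Against 0.12 over all libraries, it was 0.059 without control 2, 0.064 without control 1, 0.22 without control 4 and 0.059 to 0.22 over all 8 libraries left out in turn, 0.075 with the Hox covariate and 0.069 without both mutants with Y-linked counts. With the title letter as a replicate block 5 members had an unadjusted p under 0.05 and 0 passed; no label says that the letter pairs pups. For the letter, 3 members passed with no filter on low counts (Pcp2, Skor1 and Skor2), beside 0.329% of all genes, and 8 with DESeq2. For the interaction, 7 members passed with DESeq2 and 0 to 5 when 1 library was left out (4 without mutant 3, 5 without mutant 4, 0 otherwise), where the lone library of an arm is assumed to vary like the others.

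Signs changed for several members, among them Foxp2, Ebf1, Ebf2, Ebf3 and Rgs8, whose log2 fold changes over all libraries were 0.33, 0.34, 0.28, 0.28 and -0.26. Within P, log2 fold changes were 0.056 for Foxp1, 0.33 for Bcl11a, -0.16 for Pcp4, -0.10 for Homer3, 0.10 for Rgs8, 0.33 for Cacna1a, 0.18 for Cacna1g, 0.093 for Slc1a6, 0.16 for Dner and -0.019 for Icmt. Within R they were -0.050 for Foxp2, -0.18 for Foxp4, -0.14 for Skor2, -0.047 for Ebf1, -0.0045 for Ebf2, -0.037 for Ebf3, -0.082 for Auts2, -0.14 for Plcb4, -0.22 for Inpp5a and -0.071 for Gpr63. With the Hox covariate they were -0.076 for Skor2, -0.035 for Pcp4, -0.043 for Inpp5a, -0.027 for Homer3, 0.047 for Cacna1a and -0.11 for Icmt. Without both mutants with Y-linked counts they were -0.058 for Foxp4, -0.064 for Skor2, -0.086 for Inpp5a and -0.12 for Icmt. Pcp4 was at -0.0055 with RLE scaling, -0.0042 with DESeq2 and -0.002 with the replicate block, and Inpp5a at -0.0015 with RLE scaling and -0.0009 with DESeq2. Leaving out 1 library changed the sign of 10 members, with ranges of -0.16 to 0.004 for Foxp1, -0.075 to 0.17 for Foxp4, -0.0006 to 0.26 for Skor1, -0.075 to 0.33 for Skor2, -0.23 to 0.051 for Bcl11a, -0.053 to 0.10 for Pcp4, -0.088 to 0.11 for Inpp5a, -0.19 to 0.030 for Cacna1a, -0.24 to 0.0059 for Slc1a6 and -0.061 to 0.10 for Icmt. The causes were not tested. The exon count stayed at 0 under all its alternatives. With 4 libraries a group and a median coefficient of variation of 19.1% among controls, the 95% interval stayed within 1.5-fold in 17 of 33 members, so smaller differences were often not detectable.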
